A study of Mus musculus with 30 samples.

Results

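Ifit1, Ifit2 and Ifit3 are mouse members of the IFIT family (interferon-induced proteins with tetratricopeptide repeats), and each was read by 1 probe on arrays of the mammary gland. These 3 genes were taken by name from the 11463 genes tested. The mice had the 129sv background and were 19 weeks old, and RNA of an inguinal mammary gland was put on 1 array for each labelled sample. The groups were 9 Her2/Neu+/IFNAR1-/- glands, which carry the Her2/Neu oncogene and lack IFNAR1, 6 Her2/Neu+ glands with the oncogene alone, 8 IFNAR1-/- glands without IFNAR1 or the oncogene, and 7 WT glands. No treatment was given in the labels, which also do not state the promoter that drives the oncogene or the part of Ifnar1 that is deleted. The gland's RNA carried Cy5 and was set on each of the 30 arrays against 1 universal mouse reference RNA carrying Cy3. Every value below is therefore a log2 ratio of gland over reference: 0 is the level of that gene in the reference, and ratios of different genes cannot be ranked as levels. The labels number separate samples and do not say that each is a separate mouse, so a p-value here speaks of the spread among the labelled samples, part of which may be technical.

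Type I interferons bind a receptor built of IFNAR1 and IFNAR2, whose kinases JAK1 and TYK2 activate STAT2. A complex that holds STAT2 and IRF9 binds the interferon-stimulated response element (ISRE) in the promoters of its target genes. The Ifit genes are among the best known of these targets. Their products bind RNA and each other: IFIT1 holds back the translation of RNA with a foreign cap or 5′ end, while IFIT2 and IFIT3 bind to it or act beside it in antiviral defence. Some Ifit genes can also be induced without the interferon receptor, by factors such as IRF3.

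The family lies in 1 cluster on chromosome 19 in the RefSeq annotation of mouse assembly GRCm38.p6. Ifit2 spans chr19:34550550-34576534, Ifit3 spans chr19:34583119-34588982 and Ifit1 spans chr19:34640889-34650009. The paralogs Ifit3b at chr19:34607530-34613403 and Ifit1bl2 at chr19:34617046-34640827 lie between Ifit3 and Ifit1 and were measured as well, by 1 probe each, while no array values of Ifit1bl1 were analysed here. Because the receptor's factor acts through the ISRE, the promoter stretches that hold its core are shown for Ifit1, Ifit3 and Ifit3b. The core was searched as GAAA, then any 2 bases, then GAAA, on both strands in RefSeq windows of 250 bases before to 50 bases after each start site. It reads TTTC, any 2 bases, TTTC on the strand printed here, plus in every case, and the matches are in capitals.
Ifit1, chr19:34640760-34640838: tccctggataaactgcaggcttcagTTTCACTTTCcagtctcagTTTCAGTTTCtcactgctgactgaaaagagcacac
Ifit3, chr19:34583348-34583441: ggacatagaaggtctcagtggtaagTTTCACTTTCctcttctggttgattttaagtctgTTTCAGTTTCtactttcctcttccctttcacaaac
Ifit3b, chr19:34607744-34607837: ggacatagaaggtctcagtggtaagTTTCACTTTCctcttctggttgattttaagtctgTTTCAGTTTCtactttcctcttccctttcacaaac

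The matches begin 104 and 85 bases before the start site of the Ifit1 window, and 156 and 122 bases before that of the Ifit3 window. The Ifit3 window, chr19:34583279-34583578, lies inside the gene span given above, so its start site is not the first base of that span. The same holds for the Ifit3b window, chr19:34607707-34608006. The stretches of Ifit3 and Ifit3b are identical over 94 of 94 bases, so sequence alone does not set these copies apart there. In each of the 2 windows of Ifit2 there was no match, which says only that these letters are not in those windows. Each of the 2 windows of Ifit1bl1 held 1 match, which is not printed here. Of all 32851 promoter windows of the same length, 3.44% hold a match and 0.225% hold 2 or more. The probe sequences were not used here, and whether the Ifit3 and Ifit3b probes also detect the other copy was not tested.

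The values of the Ifit genes differ in how they were recorded. Values that occur at 1 probe of an array are called single here. On every array some values occur digit for digit at more than 1 probe. These are called repeated values, except those at the size limit of the table, 6, which were not counted as repeated. Their share of the values on an array averaged 42.0% ± 7.73 (SD, n = 9) in Her2/Neu+/IFNAR1-/-, 36.1% ± 17.1 (n = 6) in Her2/Neu+, 25.8% ± 10.1 (n = 8) in IFNAR1-/- glands and 32.2% ± 7.42 (n = 7) in WT glands. Of these repeated values 75.0% lay within 0.3 of 0, and their origin is not given in the sources used here. A number shared by many probes is not a measurement of a gene of its own, so each value of an Ifit gene below is given with its kind.

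Ifit1 was repeated on 25 of the 29 arrays where it had a value (86.2%), and 12.1% of all probes were repeated at least as often. Ifit2 was repeated on 22 of 26 arrays (84.6%), and 13.2% of all probes were repeated at least that often. Ifit3 was repeated on 9 of 30 arrays (30.0%), close to the median of 26.7% over all probes. A repeated value of Ifit1 was carried by a median of 44 probes of its array and by up to 96, one of Ifit2 by a median of 42.5 and up to 129, and one of Ifit3 by a median of 31 and up to 103. Within 0.3 of 0 lay 19 of the 25 repeated values of Ifit1, 18 of the 22 of Ifit2 and 7 of the 9 of Ifit3. Most of what the table records for Ifit1 and Ifit2 is thus a number near 0 that other probes share.

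Ifit1 had 4 single values in the series, all of them high and all in glands with the oncogene. Among Her2/Neu+/IFNAR1-/- glands the single value was 4.69 on array 110, and the other 8 values were repeated, ranging from -0.16 to 1.32. In Her2/Neu+ glands arrays 118, 119 and 120 had the single values 3.11, 3.63 and 2.98, while arrays 113, 114 and 115 had repeated values no lower than -0.03 and below 0. All 8 IFNAR1-/- values were repeated, with a lowest of -1.84, a median of -0.34 and a highest of -0.01. All 6 WT values were repeated too, with a lowest of -0.90, a median of -0.06 and a highest of -0.0065, and array 59 was blank. The oncogene-bearing groups overlapped the others, because 3 of the 6 Her2/Neu+ arrays and 7 of the 9 Her2/Neu+/IFNAR1-/- arrays stood just below 0 like most WT arrays.

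Ifit2 showed the same division, again with 4 single values, all high and all in glands with the oncogene. Array 108 of the Her2/Neu+/IFNAR1-/- glands had a single value of 5.93, the other 7 values were repeated and lay between -0.12 and -0.0041, and array 109 was blank. In Her2/Neu+ glands the single values were 2.28 on array 118, 5.78 on array 119 and 1.84 on array 120; arrays 114 and 115 had the repeated values -0.02 and -0.04, and array 113 was blank. The 7 IFNAR1-/- values were all repeated and ran from -1.26 to 0.38 with a median of -0.18. The 6 WT values were all repeated and ran from -1.29 to 0.04 with a median of -0.07. Ifit1 and Ifit2 were both single on 3 arrays, which are Her2/Neu+ 118, 119 and 120, and both repeated on 20 of the 25 arrays with a value for each. In the Her2/Neu+/IFNAR1-/- group their high arrays differed: on array 110 only Ifit1 was single, and on array 108 only Ifit2 was.

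Ifit3 was single on 21 arrays and gives the clearest record of the family. Its log2 ratio in Her2/Neu+/IFNAR1-/- glands had a lowest value of -0.05, a median of 2.10 and a highest of 3.94, and arrays 103 and 104, the 2 lowest, were repeated. In Her2/Neu+ glands all 6 values were single, with a lowest of 1.87, a median of 2.87 and a highest of 3.64. In IFNAR1-/- glands the values ran from -0.60 to 0.46 with a median of -0.14, and 4 of the 8 were repeated. In WT glands they ran from -0.63 to 2.17 with a median of -0.0062, and 3 of the 7 were repeated. The ranges of the 2 oncogene-bearing groups overlapped, and WT array 53 at 2.17 reached into both.

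**Figure D1:**
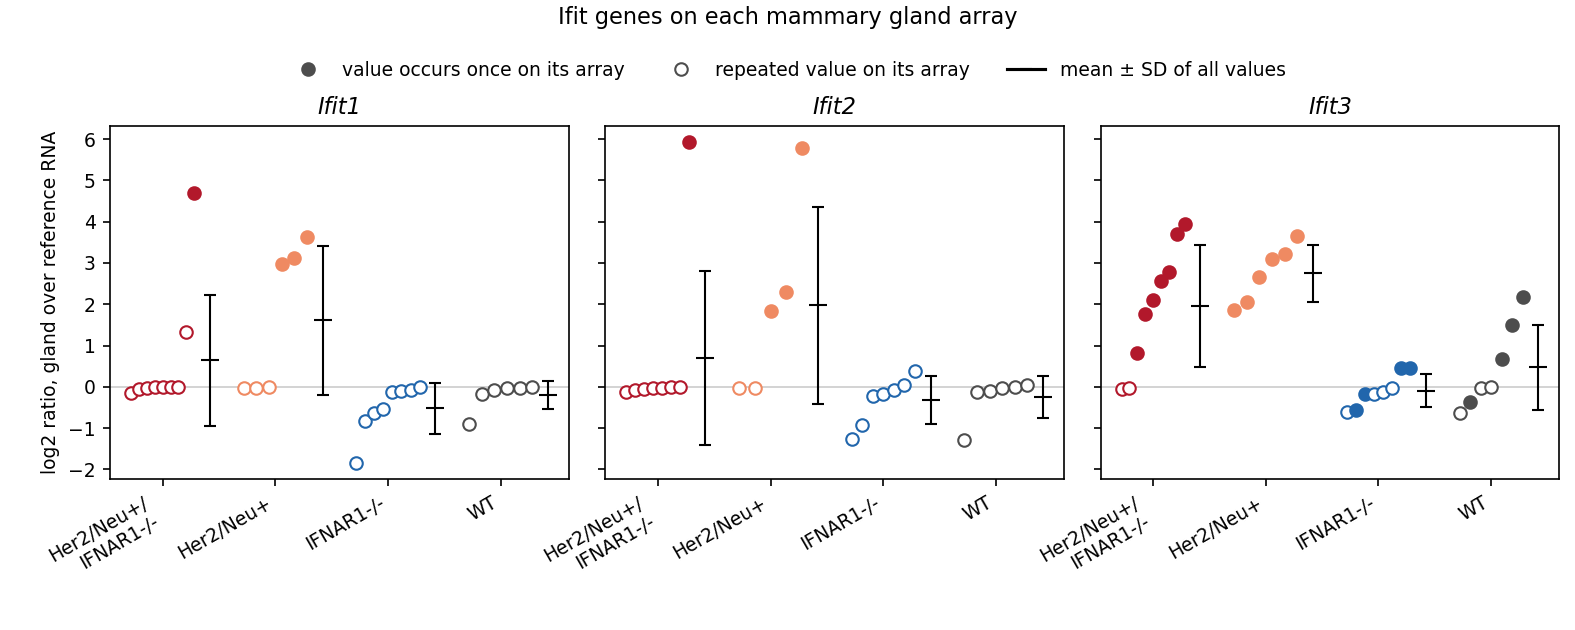
Log2 ratio of gland over reference RNA for Ifit1, Ifit2 and Ifit3 on each array, by group. Filled points are values that occur at 1 probe of their array, open points are repeated values, and bars are the mean ± SD of all values of a group; the 4 filled points of Ifit1 and the 4 of Ifit2 are high and lie in the 2 groups with the oncogene, and Ifit3 has 21 filled points over all 4 groups.

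The mean levels of all 3 genes came in the same order of groups. Ifit1 averaged 0.64 ± 1.59 (SD, n = 9) in Her2/Neu+/IFNAR1-/-, 1.61 ± 1.80 (n = 6) in Her2/Neu+, -0.52 ± 0.61 (n = 8) in IFNAR1-/- glands and -0.20 ± 0.35 (n = 6) in WT glands. Ifit2 averaged 0.70 ± 2.11 (n = 8) in Her2/Neu+/IFNAR1-/-, 1.97 ± 2.38 (n = 5) in Her2/Neu+, -0.32 ± 0.57 (n = 7) in IFNAR1-/- glands and -0.25 ± 0.51 (n = 6) in WT glands. Ifit3 averaged 1.96 ± 1.47 (n = 9) in Her2/Neu+/IFNAR1-/-, 2.75 ± 0.69 (n = 6) in Her2/Neu+, -0.09 ± 0.40 (n = 8) in IFNAR1-/- glands and 0.47 ± 1.03 (n = 7) in WT glands. Her2/Neu+ was thus highest, followed by Her2/Neu+/IFNAR1-/-, WT and IFNAR1-/-, and no step between neighbouring groups passed the test for any of the 3 genes. For Ifit1 and Ifit2 each step was smaller than the larger of the SDs beside it. All WT and IFNAR1-/- values of these genes were repeated, and without IFNAR1-/- array 44 the mean of Ifit2 was higher in IFNAR1-/- than in WT glands, so that last step was not measured for Ifit1 and Ifit2. The comparisons below share groups, so their changes are not independent of each other.

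The oncogene was first compared within glands that lack the receptor, Her2/Neu+/IFNAR1-/- against IFNAR1-/-, which asks what accompanies the oncogene when IFNAR1 is absent. Ifit3 rose by 2.05 ± 0.48 (SE) on the log2 scale, or 4.14-fold (limma, adjusted p = 0.0331). Of the 9 Her2/Neu+/IFNAR1-/- arrays 7 stood above every IFNAR1-/- array, and those 7 values were single. The values on arrays 103 and 104 were repeated, as were 4 of the 8 IFNAR1-/- values behind the change. This was 1 of the 3 members, in a comparison where 1.31% of all genes passed and 0.942% passed with a higher level. Ifit1 had a change of 1.16 ± 0.58 (adjusted p = 0.285) and Ifit2 one of 1.02 ± 0.79 (adjusted p = 0.510), and neither passed. In whole glands fewer cells of a type and less RNA per cell cannot be told apart.

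The Ifit3 call sat near the threshold. It passed with repeated values set to missing, at 2.48 (adjusted p = 0.0160). That setting drops arrays 103 and 104, the 2 lowest of Her2/Neu+/IFNAR1-/-. It thus removes values by their level and is not an independent check. Ifit3 did not pass after quantile normalization, at 1.81 (adjusted p = 0.0547), with only these 2 groups in the fit (2.05, adjusted p = 0.0698), with the inferred slide as a random block (2.06, adjusted p = 0.131) or with the percent of repeated values on each array as a covariate (1.95, adjusted p = 0.118). Leaving out 1 array at a time gave changes from 1.80 to 2.30 with adjusted p from 0.0115 to 0.0786, and the call was lost without IFNAR1-/- array 44, 46, 47 or 50 or without Her2/Neu+/IFNAR1-/- array 105, 108, 109 or 110. Without the 4 arrays high in skeletal muscle markers, which are Her2/Neu+/IFNAR1-/- array 106 and IFNAR1-/- arrays 41, 42 and 44, Ifit3 stood at 2.09 (adjusted p = 0.0688). Within inferred array set 1 the change was 1.85 and within set 2 it was 2.24, neither past the threshold. Her2/Neu+/IFNAR1-/- and WT are the only pair compared with arrays on a shared inferred slide, so in the other pairs slide and genotype cannot be told apart. The mean of 10 measured leukocyte markers of 13 listed was 0.89 ± 0.53 (range 0.21 to 1.94) in Her2/Neu+/IFNAR1-/- and 0.18 ± 0.48 (range -0.56 to 0.72) in IFNAR1-/- glands, with 0 of 10 past the threshold and a median change of 0.57, and their part in the change of Ifit3 was not tested.

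Of 11 listed markers of the mammary epithelium 9 were measured, and 2 of them passed in the same comparison, in opposite directions. The median change of the 9 was 0.01. Their mean, over the markers with a value on each array, was 2.52 ± 0.86 in Her2/Neu+/IFNAR1-/- and 2.21 ± 1.15 in IFNAR1-/- glands. The milk protein gene Lalba averaged 6, the upper limit of the table, in Her2/Neu+/IFNAR1-/-, against 1.36 in IFNAR1-/- glands (4.64 ± 0.52, adjusted p = 0.000197). The basal keratin gene Krt14 fell by 2.47 ± 0.59, to 0.05 in Her2/Neu+/IFNAR1-/-, against 2.52 in IFNAR1-/- glands (adjusted p = 0.0413). Lalba also rose in Her2/Neu+ against WT (5.86 ± 0.54, adjusted p = 8.09e-06) and in Her2/Neu+/IFNAR1-/- against WT (5.93 ± 0.52, adjusted p = 3.91e-06). The part of the epithelial markers in the Ifit values was not tested.

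Other genes of the interferon pathway rose in the same comparison. Of 64 listed genes 48 were tested, 7 passed with a higher level and 0 with a lower one, where 0.366% of all genes passed lower. The median change was 0.66 against 0.15 over all genes tested. Among the factors, Stat2, a subunit of the ISRE-binding complex, rose by 1.54 ± 0.40 to 1.32 ± 0.84 in Her2/Neu+/IFNAR1-/-, against -0.23 ± 0.97 in IFNAR1-/- glands (adjusted p = 0.0489). That call was lost in 21 of 30 fits that left out 1 array and with repeated values set to missing (1.16, adjusted p = 0.0717). Among the sensors, Cgas, which detects DNA in the cytosol, rose by 2.26 ± 0.46 (adjusted p = 0.0170).

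Among the effectors, the oligoadenylate synthetases Oas1a and Oas2, which switch on RNase L in the presence of double-stranded RNA, rose by 3.33 ± 0.57 (adjusted p = 0.00460) and 2.81 ± 0.63 (adjusted p = 0.0295). Oas1a stood higher on all 9 Her2/Neu+/IFNAR1-/- arrays than on any IFNAR1-/- array, as did 0.157% of all genes tested. The related Oasl2 rose by 2.70 ± 0.53 (adjusted p = 0.0112), and Rtp4, a chaperone of receptor transport that is induced by interferon, by 3.06 ± 0.60 (adjusted p = 0.0114). Usp18, which removes ISG15 from proteins and dampens receptor signalling, rose by 2.75 ± 0.60 (adjusted p = 0.0258). With the inferred slide as a random block Oas1a alone of these 7 genes still passed. Without 1 array at a time Oas1a, Oasl2, Rtp4 and Cgas kept the call in all 30 fits, Usp18 lost it in 7 and Oas2 in 6. Of the values of Oas1a, 6 of 18 in Her2/Neu+/IFNAR1-/- and 8 of 16 in IFNAR1-/- glands were repeated, counted over its probes. Cgas has 2 probes on the array, of which 1 was kept for the test. The genes Cgas, Oas2, Oasl2, Rtp4 and Usp18, each tested by 1 probe, had 2 to 4 repeated values of 9 in Her2/Neu+/IFNAR1-/-. In IFNAR1-/- glands they had 1 to 3 of 8. With repeated values set to missing these 6 genes still passed, at 4.86 for Oas1a (adjusted p = 0.000335) and between 2.95 for Rtp4 (adjusted p = 0.0217) and 3.68 for Oasl2 (adjusted p = 0.00316) for the rest. Most repeated values lay near 0, so that setting removes values by their level and is not an independent check.

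The receptor and kinase genes did not pass. Ifnar1 had a change of 0.84 ± 0.54 (adjusted p = 0.412). The 8 listed interferon ligands were not analysed here.

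The oncogene was then compared with the receptor present, Her2/Neu+ against WT. Ifit3 had a change of 2.28 ± 0.55, or 4.87-fold, which missed the threshold (adjusted p = 0.0855), with 6 of 6 Her2/Neu+ arrays above the WT mean and 4 of 6 above every WT array. None of the 3 genes had all Her2/Neu+ arrays above all WT arrays, which 0.34% of all genes tested had. Ifit1 had a change of 1.81 ± 0.69 (adjusted p = 0.271) and Ifit2 one of 2.22 ± 0.92 (adjusted p = 0.316). None of the 3 passed in limma (0 of 3), where 0.131% of all genes did, while each had an unadjusted p under 0.05, as had 12.1% of all genes. Without Her2/Neu+ array 115 Ifit3 passed at 2.46 (adjusted p = 0.0320), the only one of 30 such fits in which it did. The size of the changes of Ifit1 and Ifit2 was not measured well, since all their WT values were repeated.

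In this comparison 2 of the 48 tested pathway genes passed, both higher, in a table where 0.113% of all genes passed higher. Oasl2 rose by 3.30 ± 0.60 to 1.67 ± 1.34 in Her2/Neu+, against -1.63 ± 0.61 in WT glands (adjusted p = 0.0130). Oas1a rose by 3.24 ± 0.65 to 1.46 ± 1.47 in Her2/Neu+, against -1.78 ± 0.63 in WT glands (adjusted p = 0.0268). The median change of the 48 genes was 0.48 against -0.02 over all genes tested. A higher mean in Her2/Neu+ was found for 39 of the 48 and for 5565 of all 11463 genes. Irf7, the factor that amplifies interferon production, had a change of 2.58 ± 0.82 (adjusted p = 0.177) with all 7 of its WT values repeated, and Ddx58, which encodes the RNA sensor RIG-I, one of 1.11 ± 0.35 (adjusted p = 0.174). Tyk2, repeated on 6 of 6 Her2/Neu+ and 6 of 7 WT arrays, stood at -0.44 ± 0.33 (adjusted p = 0.639) and Usp18 at 1.36 ± 0.69 (adjusted p = 0.433). With the inferred slide as a random block Oasl2 and Oas1a no longer passed (adjusted p = 0.112 and 0.165). With repeated values set to missing, a setting that removes values by their level, both still passed, Oasl2 at 3.81 (adjusted p = 0.0102) and Oas1a at 4.12 (adjusted p = 0.00990). Oasl2 was also lost without Her2/Neu+ array 118 (2.95, adjusted p = 0.0742), and Oas1a in 8 of 30 fits, with the lowest change of 2.90 without the same array (adjusted p = 0.132).

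Both alterations together were set against neither, Her2/Neu+/IFNAR1-/- against WT. Ifit3 had a change of 1.49 ± 0.50 (adjusted p = 0.231), Ifit1 one of 0.84 ± 0.63 (adjusted p = 0.669) and Ifit2 one of 0.96 ± 0.82 (adjusted p = 0.715). None passed in limma (0 of 3), where 0.174% of all genes did, and Ifit3 was the 1 member with an unadjusted p under 0.05, as had 11.1% of all genes. These groups share 1 inferred slide, on which Ifit3 stood at 2.56 on Her2/Neu+/IFNAR1-/- array 102, against 2.17, -0.03 and 0.66 on WT arrays 53, 54 and 57. With slide as a fixed block the change rests on this slide alone, 1 Her2/Neu+/IFNAR1-/- array against 3 WT arrays. It was 1.63 for Ifit3 and 0.08 for Ifit1, and 1 array cannot show whether slide matters. None of the 48 pathway genes passed in limma (0 of 48, 7 with an unadjusted p under 0.05 against 11.1% of all genes), and the smallest p by role was that of Irf7 at 2.30 ± 0.74 (adjusted p = 0.223), Cgas at 1.44 ± 0.48 (adjusted p = 0.233), Oasl2 at 2.27 ± 0.55 (adjusted p = 0.0792), Usp18 at 1.17 ± 0.62 (adjusted p = 0.499) and Ifnar1 at 0.62 ± 0.56 (adjusted p = 0.737).

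**Figure D2:**
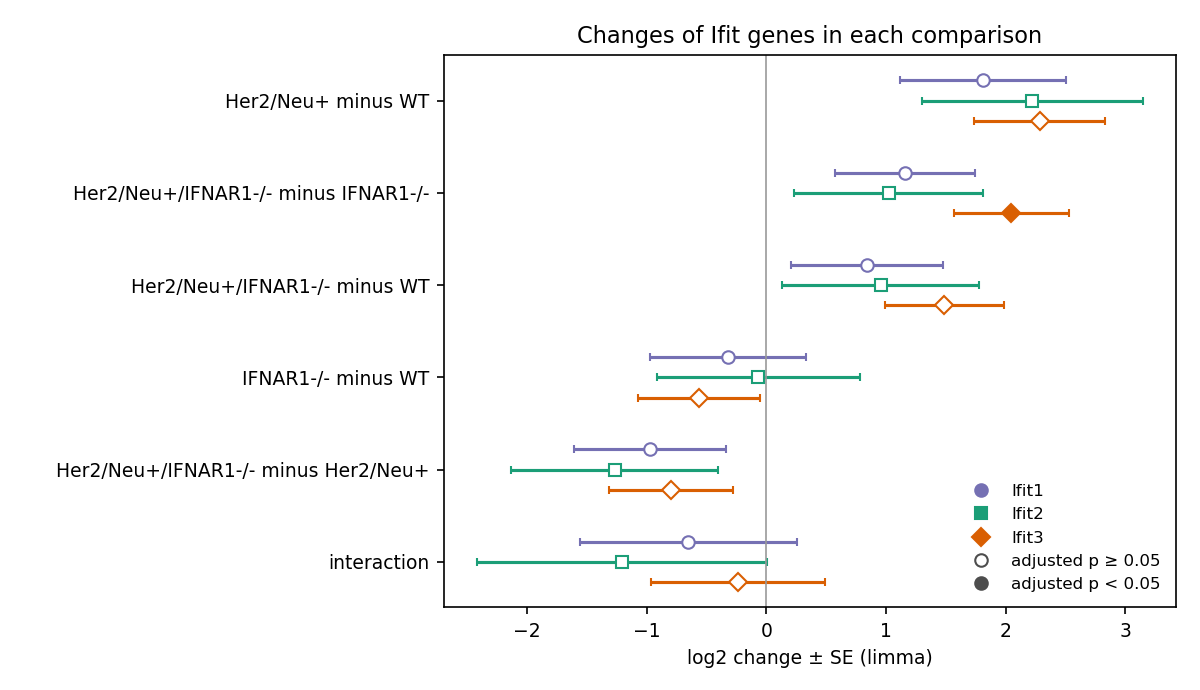
Log2 change ± SE from limma for Ifit1, Ifit2 and Ifit3 in each comparison, the last row being the interaction. The filled symbol is Ifit3 in Her2/Neu+/IFNAR1-/- minus IFNAR1-/-, at 2.05 ± 0.48, which passed an adjusted p of 0.05; all open symbols did not.

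Loss of IFNAR1 was compared without and with the oncogene, which asks how far the Ifit genes in the gland depend on the receptor. In IFNAR1-/- against WT glands Ifit3 had a change of -0.56 ± 0.51 (adjusted p = 0.858), with 8 of 8 IFNAR1-/- arrays below the WT mean but none below every WT array. Ifit1 had a change of -0.32 ± 0.65 (adjusted p = 0.947) and Ifit2 one of -0.06 ± 0.85 (adjusted p = 0.997). None passed in limma or had an unadjusted p under 0.05 (0 of 3 by each count), where 0.0262% of all genes passed and 6.87% had an unadjusted p under 0.05. Since all values of Ifit1 and Ifit2 in both groups were repeated, their comparison here sets shared numbers against shared numbers. Array 44 held the lowest IFNAR1-/- value of each of these genes, and without it Ifit2 stood at 0.09.

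When Her2/Neu+/IFNAR1-/- glands were set against Her2/Neu+ glands, all 3 genes had a lower mean in the glands without IFNAR1. Ifit3 had a change of -0.79 ± 0.52 (adjusted p = 0.542), with 4 of 9 Her2/Neu+/IFNAR1-/- arrays below every Her2/Neu+ array and 2 of 9 above every one. Ifit1 had a change of -0.97 ± 0.63 (adjusted p = 0.541) and Ifit2 one of -1.27 ± 0.87 (adjusted p = 0.562). None passed in limma or had an unadjusted p under 0.05 (0 of 3 by each count), where 0.0785% of all genes passed and 11.2% had an unadjusted p under 0.05. These tests do not show that the groups are alike. In Her2/Neu+/IFNAR1-/- glands, labelled as lacking the receptor, Ifit3 was single on 7 of 9 arrays, at 0.83 to 3.94. On 4 of the 9 it stood above every WT array, the highest of which was 2.17.

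The effect of IFNAR1 loss was not shown to differ between glands with and without the oncogene. The interaction was -0.65 ± 0.91 for Ifit1 (adjusted p = 0.814), -1.20 ± 1.21 for Ifit2 (adjusted p = 0.729) and -0.23 ± 0.73 for Ifit3 (adjusted p = 0.925). None of the 3 passed in limma or had an unadjusted p under 0.05, where 0.0174% of all genes passed and 9.62% had such a p. With repeated values set to missing the interaction of Ifit3 turned to 0.72, so its direction is not settled by these arrays.

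No tested gene of the pathway list passed in either comparison of receptor loss, although most had a lower mean without IFNAR1. In IFNAR1-/- against WT 0 of 48 genes passed in limma and 8 had an unadjusted p under 0.05 (6.87% of all genes did). Of the 48, 39 had a lower mean and 9 a higher one, while 4812 of all 11463 genes had a higher one. The median change was -0.47 against -0.08 over all genes tested. The smallest p by role belonged to Ifi47, a GTPase induced by interferons, at -2.16 ± 0.66 (adjusted p = 0.534), Usp18 at -1.58 ± 0.64 (adjusted p = 0.684), Stat2 at -0.83 ± 0.43 (adjusted p = 0.744), the nucleic acid sensor Zbp1 at -0.71 ± 0.41 (adjusted p = 0.777) and Tyk2 at 0.15 ± 0.31 (adjusted p = 0.949). With the oncogene, in Her2/Neu+/IFNAR1-/- against Her2/Neu+, 0 of 48 passed in limma and 7 had an unadjusted p under 0.05 (11.2% of all genes did). Here 33 had a lower mean and 15 a higher one, while 6770 of all 11463 genes had a higher one. The median change was -0.40 against 0.11.

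In that pair the smallest p by role belonged to Oasl1 at -1.65 ± 0.51 (adjusted p = 0.236), Ddx58 at -0.78 ± 0.32 (adjusted p = 0.368), Irf3 at 0.47 ± 0.31 (adjusted p = 0.547), Tyk2 at 0.51 ± 0.32 (adjusted p = 0.523) and Socs1, an inhibitor of JAK kinases, at 0.58 ± 0.54 (adjusted p = 0.670). In the interaction 0 of 48 passed in limma, 3 had an unadjusted p under 0.05 (9.62% of all genes did) and the median was 0.25 against 0.18. The smallest p by role there belonged to Cgas at 1.88 ± 0.71 (adjusted p = 0.483), Ifi27l2a at 1.50 ± 0.72 (adjusted p = 0.517), Socs1 at 1.34 ± 0.75 (adjusted p = 0.544), Irf1 at 0.54 ± 0.36 (adjusted p = 0.588) and Tyk2 at 0.36 ± 0.44 (adjusted p = 0.785).

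The receptor gene itself does not check the labels. Ifnar1, read by 2 probes whose place relative to the deletion is not given, averaged 1.04 ± 1.23 (n = 8) in Her2/Neu+/IFNAR1-/-, 0.77 ± 1.45 (n = 6) in Her2/Neu+, 0.20 ± 0.89 (n = 8) in IFNAR1-/- glands and 0.42 ± 0.92 (n = 7) in WT glands. Of its probe values 7 of 13 in Her2/Neu+/IFNAR1-/-, 6 of 11 in Her2/Neu+, 5 of 14 in IFNAR1-/- and 6 of 12 in WT glands were repeated. Irf9, the DNA-binding partner of STAT2, averaged 1.54 ± 1.08 (n = 9) in Her2/Neu+/IFNAR1-/-, 1.72 ± 1.07 (n = 6) in Her2/Neu+, 0.50 ± 0.57 (n = 8) in IFNAR1-/- glands and 1.02 ± 0.22 (n = 7) in WT glands, and passed in no comparison. Among markers of the labelled tissue, the mean of up to 9 epithelial markers lay between 0.21 and 3.56 over all arrays. That of up to 6 adipocyte markers lay between 5.01 and 5.85. Blanks were skipped, so arrays differ in the markers averaged, and Lalba had a value on only 21 arrays. The epithelial marker Krt8 averaged below 0 in every group.

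The Ifit genes were next set beside other interferon effectors on the same arrays. The mean of the 30 effectors tested, none of them an Ifit gene, was 0.64 ± 0.73 (range 0.10 to 1.95) in Her2/Neu+/IFNAR1-/-, 1.20 ± 0.70 (0.27 to 2.28) in Her2/Neu+, -0.38 ± 0.29 (-0.82 to -0.09) in IFNAR1-/- glands and 0.26 ± 0.35 (-0.12 to 0.83) in WT glands. The highest means were 2.28 on Her2/Neu+ array 118, 1.95 on Her2/Neu+/IFNAR1-/- array 110 and 1.82 on Her2/Neu+/IFNAR1-/- array 105. The 4 arrays with a single Ifit1 value had effector means of 1.09 or more. So had Her2/Neu+/IFNAR1-/- array 105 (1.82) and Her2/Neu+ array 113 (1.22), on which Ifit1 was repeated. The repeated Ifit1 value was 1.32 on array 105, shared with 1 other probe, and -0.0047 on array 113, shared with 40 others. The single Ifit2 value of 5.93 on Her2/Neu+/IFNAR1-/- array 108 stood apart from this, with an effector mean of 0.33 there, an Ifit3 value of 2.10 and a repeated Ifit1 value of -0.0068. Her2/Neu+/IFNAR1-/- arrays 103 and 104, the lowest for Ifit3, also had the lowest effector means of their group, 0.10 and 0.15. Yet Ifit3 stood at 2.56 on Her2/Neu+/IFNAR1-/- array 102 and 2.06 on Her2/Neu+ array 114, with effector means of 0.37 and 0.27. On WT array 55, with an effector mean of 0.60, it was a repeated -0.0062.

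**Figure D3:**
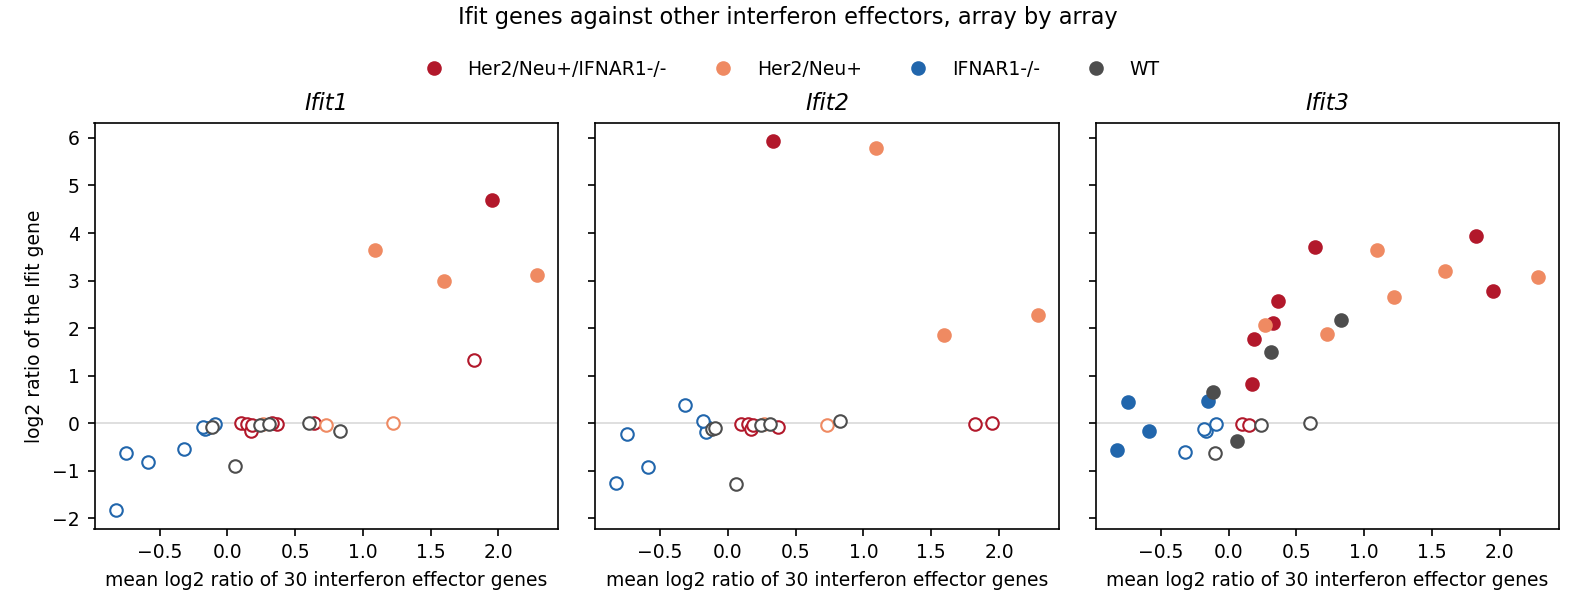
Log2 ratio of each Ifit gene against the mean log2 ratio of 30 other interferon effector genes on the same array, coloured by group, with repeated Ifit values open. Ifit3 is high on the arrays with the highest effector means but also on some with low ones, such as 2.56 at an effector mean of 0.37. The Ifit2 point at 5.93 lies at an effector mean of 0.33.

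The genes whose pattern was most like that of Ifit3 were taken by Pearson correlation over arrays on which Ifit3 and the gene both had single values, at least 20 arrays, among 4199 genes. They were Oas1a (r = 0.896, Spearman's rho = 0.909, 21 arrays), Isg15 (0.884, 0.901, 21 arrays), Oas1f (0.883, 0.890, 20 arrays), Apol9b (0.823, 0.848, 21 arrays) and Irf9 (0.817, 0.788, 20 arrays). Isg15 encodes a ubiquitin-like protein that is attached to other proteins. These values describe arrays that share groups and the reference RNA. After the group means were subtracted, r was 0.699, 0.693, 0.677, 0.558 and 0.556 in the same order of genes, each smaller than before. Because the genes were picked for their high r on the same arrays, these smaller values cannot decide whether the likeness holds within groups. Ifit1 and Ifit2 had 4 single values each, too few to name a gene for them.

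The paralogs in the cluster behaved unlike each other. Ifit3b was single and high on 4 of 4 Her2/Neu+ arrays with a value, at 3.21, 5.04, 4.68 and 4.67 on arrays 113, 118, 119 and 120. Among Her2/Neu+/IFNAR1-/- glands it stood at 5.70 on array 105, 0.86 on array 108 and 4.68 on array 110. On array 109 it stood at the upper limit of the table, 6, which 287 probes of that array carried. Of the rest of that group 2 values were repeated and 3 were blank. All 6 IFNAR1-/- and all 5 WT values of Ifit3b were repeated. On the 7 arrays where Ifit3 and Ifit3b were both single and below the limit r was 0.857 and rho 0.821. The change of Ifit3b was 2.92 ± 0.87 in Her2/Neu+/IFNAR1-/- against IFNAR1-/- (adjusted p = 0.0895) and 4.30 ± 1.02 in Her2/Neu+ against WT (adjusted p = 0.107). In Her2/Neu+/IFNAR1-/- against IFNAR1-/- Ifit3b passed without Her2/Neu+/IFNAR1-/- array 106 (3.51, adjusted p = 0.0407) or without 1 other array of that group (3.50, adjusted p = 0.0454). Each of these fits drops 1 of the 2 repeated values of that group, which are its lowest, so neither is an independent check. After quantile normalization Ifit3b did not pass there (2.72, adjusted p = 0.104). In Her2/Neu+ against WT Ifit3b passed with only those groups in the fit (4.30 ± 0.38, adjusted p = 0.00288). All 5 WT values behind that SE were repeated, so its WT side rests on shared numbers. Ifit3b also passed without Her2/Neu+ array 115, on which it was blank (4.30, adjusted p = 0.0434). It did not pass in this pair after quantile normalization (4.50, adjusted p = 0.0544).

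Ifit1bl2 did not share this pattern of high values with the oncogene. All 9 of its Her2/Neu+/IFNAR1-/- values were repeated, at a mean of -0.08 ± 0.12, while 3 of 6 values were single in Her2/Neu+ (0.43 ± 0.54), 6 of 8 in IFNAR1-/- (0.89 ± 0.95) and 3 of 7 in WT glands (0.50 ± 1.00). Its change in Her2/Neu+/IFNAR1-/- against IFNAR1-/- was -0.97 ± 0.35 (adjusted p = 0.133). Its first promoter window shares 245 bases with that of Ifit1, on the opposite strand, and so holds the same 2 ISRE core matches.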

How the data were processed

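The authors deposited log2 ratios of gland over reference for 20896 probes, of which 17376 carry 1 gene symbol in the platform annotation and 3520 none. The base 2 was inferred from the limit of 6 (64-fold), the direction comes from the dyes per the labels, and the array normalization is not given in the sources used here. Array medians lay between -0.12 and -0.0031, and each array held 17485 to 20801 values. The table holds no intensities, so precision rests on how many arrays each group has. Probes blank on no more than 50% of each group's arrays were averaged by gene. Means of marker lists and of effectors on an array skip blank genes, so they may rest on fewer genes than stated. limma 3.58.1 (R 4.3.3; lmFit, eBayes, 1 fit of all 30 arrays, a mean per group) was two-sided with Benjamini-Hochberg adjustment over 11463 genes, threshold 0.05, and was tested on simulated data. The interaction subtracts the change with IFNAR1 loss in oncogene-free glands from that in Her2/Neu+ glands. The 8 slides and 2 array sets were inferred from block numbers and sample order. Pathway genes named are, by role, up to 4 past the threshold, otherwise the smallest p; the 5 genes most like each member and 5 neighbours on each side were also taken. The members, lists, motif and rules were chosen with earlier results of these data known.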

Additional observations from a re-analysis of the deposited data

Results flagged for a closer look

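In 6 of the 24 sets of values examined, a gene in a group of 4 to 10 arrays, the highest or lowest array stood far from the others by Dixon's criterion, which chance meets in about 1 of 20 sets. Ifit1 in Her2/Neu+/IFNAR1-/- had its highest value of 4.69 on array 110, a single value, and Ifit2 in the same group its highest of 5.93 on array 108, also single. The lowest IFNAR1-/- value of Ifit1, -1.84 on array 44, was a repeated value. WT array 60 held the lowest WT value of both Ifit1, -0.90, and Ifit2, -1.29, each repeated. Ifit3b in WT had its highest value of 0.58 on array 53, again repeated.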

How the results depend on the processing

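Besides the settings below, leaving out each array was run for every comparison. Of the changes of the 3 Ifit genes recomputed under the other alternatives, 211 kept their direction and side of the threshold, 8 lost the call and 9 turned. The 8 all belong to Ifit3 in Her2/Neu+/IFNAR1-/- minus IFNAR1-/-: quantile normalization (1.81), only the groups compared (2.05), slide as a random block (2.06), percent of repeated values as a covariate (1.95), arrays high in muscle markers left out (2.09), block number as a covariate (2.07, adjusted p = 0.0569) and inferred array set 1 alone (1.85, 0.635) or set 2 alone (2.24, 0.0995), with 1.80 to 2.30 over the fits without 1 array. For Ifit3 in Her2/Neu+ minus WT leaving out 1 array gave 2.10 to 2.57. The turned values were 0.095 for Ifit1 in IFNAR1-/- minus WT (set 1); 0.012, 0.69, 0.32 and 0.096 for Ifit2 in the same comparison (quantile normalization, set 1, percent of repeated values as a covariate, muscle arrays left out); -0.042 for Ifit2 in Her2/Neu+/IFNAR1-/- minus WT (slide as a fixed block); -0.23 for Ifit2 in Her2/Neu+/IFNAR1-/- minus IFNAR1-/- (set 1); and 0.72 and 0.32 for Ifit3 in the interaction (repeated values missing, set 2). Leaving out 1 array gave -0.27 to 0.092 for Ifit2 in IFNAR1-/- minus WT, turned without IFNAR1-/- arrays 44 and 46, and -0.52 to 0.016 for Ifit3 in the interaction, turned without Her2/Neu+/IFNAR1-/- arrays 103 and 104. Of other genes, Tyk2 turned to 0.14 in Her2/Neu+ minus WT (set 2), -0.39 in IFNAR1-/- minus WT (set 1; -0.10 to 0.26 without 1 array) and -0.40 in the interaction (set 2), Ifnar1 to -0.32 and -0.013 in Her2/Neu+/IFNAR1-/- minus WT and minus IFNAR1-/- (set 1), Cgas to -1.27 in the interaction and Socs1 to -0.21 in Her2/Neu+/IFNAR1-/- minus Her2/Neu+ (set 2). The causes were not tested.

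The number of genes past the threshold moved more. In Her2/Neu+ minus WT, 15 as reported, it was 38 with repeated values missing, 24 after quantile normalization, 33 with array weights, 3 with slide as a random block, 0 in set 1, 750 in set 2 and 3 to 131 without 1 array. In IFNAR1-/- minus WT, 3 as reported, it was 25 with weights, 6 with only the groups compared, 5 without the muscle arrays, 1 with slide, 0 in set 1, 1 in set 2 and 2 to 5 without 1 array. In Her2/Neu+/IFNAR1-/- minus WT, 20 as reported, it was 47 with repeated values missing, 32 after quantile normalization, 168 with weights, 7 with slide as a random or a fixed block, 37 with the repeated percent, 0 in set 1, 2 in set 2 and 9 to 41 without 1 array. In Her2/Neu+/IFNAR1-/- minus Her2/Neu+, 9 as reported, it was 4 with only the groups compared, 5 with slide, 54 with the repeated percent, 1 in set 1, 908 in set 2 and 7 to 23 without 1 array. In Her2/Neu+/IFNAR1-/- minus IFNAR1-/-, 150 as reported, it was 261 with repeated values missing, 384 with weights, 50 with block number, 23 with only the groups compared, 13 with slide, 29 with the repeated percent, 0 in set 1, 9 in set 2 and 38 to 325 without 1 array. In the interaction, 2 as reported, it was 0 with repeated values missing, weights, a variance trend, slide, block number, set 1 or the muscle arrays left out, 1 with the repeated percent or with probes valued on all 30 arrays, 486 in set 2 and 0 to 2 without 1 array. The percent of repeated values as a covariate and the fit without the 4 muscle arrays were added after seeing the data. Ifit1 and Ifit2 could not be tested with repeated values missing or with probes valued on all 30 arrays, and the interaction could not be fitted with only the groups compared. No paired analysis was possible because the groups share no sample numbers.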

Other observations

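The 5 measured genes nearest to the Ifit cluster on either side of chromosome 19 were Lipo1, Stambpl1, Acta2, Fas and Lipa on one side and Kif20b, Rpp30, Ankrd1, Pcgf5 and Hectd2 on the other. In Her2/Neu+/IFNAR1-/- minus IFNAR1-/-, where 1.31% of all genes passed, 1 of these 10 did: Lipo1, which lies farthest from the cluster on its side and is named as a lipase family member, rose by 0.97 ± 0.23 (limma, adjusted p = 0.0360). Their median change was 0.30 there, and Ankrd1, a muscle ankyrin repeat protein, had the largest at 2.11 ± 0.59 (adjusted p = 0.0657). In the other comparisons 0 of 10 passed in limma, while the number at an unadjusted p under 0.05 was 3 for Her2/Neu+ minus WT (12.1% of all genes), 2 for Her2/Neu+/IFNAR1-/- minus WT (11.1%), 4 for Her2/Neu+/IFNAR1-/- minus Her2/Neu+ (11.2%), 1 for IFNAR1-/- minus WT (6.87%) and 1 for the interaction (9.62%).

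The 4 measured markers of skeletal muscle averaged 0.72 ± 1.46 in Her2/Neu+/IFNAR1-/-, 0.03 ± 0.88 in Her2/Neu+, 2.09 ± 2.49 in IFNAR1-/- and 0.38 ± 0.44 in WT glands. IFNAR1-/- arrays 41, 42 and 44 stood at 4.95, 4.97 and 5.30, and the group averaged 0.30 ± 0.34 (n = 5) without them. Her2/Neu+/IFNAR1-/- array 106 stood at 4.38, and the group averaged 0.27 ± 0.52 (n = 8) without it. Array 44 also held the lowest IFNAR1-/- values of Ifit1 and Ifit2. Without these 4 arrays Ifit3 in Her2/Neu+/IFNAR1-/- minus IFNAR1-/- stood at 2.09 (limma, adjusted p = 0.0688). The 5 markers of plasmacytoid dendritic cells, which are known as strong producers of type I interferon, averaged 1.51 ± 0.45 in Her2/Neu+/IFNAR1-/-, 1.38 ± 0.28 in Her2/Neu+, 1.57 ± 0.38 in IFNAR1-/- and 1.67 ± 0.61 in WT glands, with 0 of 5 past the threshold in each of the 6 comparisons.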
